A study of Mus musculus with 42 samples.

Results

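The transcripts of 10 genes that sense or degrade extracellular nucleotides and adenosine were followed in mouse macrophages matured from bone marrow in culture (BMDM), with or without palmitate or bacterial lipopolysaccharide (LPS). The rule that lists them uses gene names and no measured value, and it was written with earlier results of these data known. They are the adenosine receptor genes Adora2a and Adora2b, the ATP-gated channel genes P2rx4 and P2rx7, the nucleotide receptor genes P2ry2, P2ry6, P2ry12, P2ry13 and P2ry14, and the ectonucleotidase gene Entpd1. All 10 were found among the 37310 rows of the count table, and all 10 passed the filter on low counts that left 11624 genes for testing. With LPS, Adora2a, Adora2b and P2ry2 rose and P2rx7 fell at 2 h under both genotype labels. At 24 h P2rx4, P2rx7, P2ry6, P2ry13, P2ry14 and Adora2a were higher and Entpd1 was lower under both, whereas no palmitate response passed the test.

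Stressed, dying or activated cells release ATP, ADP, UTP, UDP and UDP-glucose, which act on neighbouring cells as danger signals. P2X receptors are cation channels opened by ATP, and P2Y receptors are G protein-coupled receptors with separate preferences among adenine and uridine nucleotides. Ectonucleotidases on the cell surface remove the nucleotides stepwise to adenosine, and adenosine restrains macrophage inflammation through receptors that raise cyclic AMP. Macrophages are well known for P2X7, which links high ATP to inflammasome activation, and for CD39, the product of Entpd1.

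The libraries labelled KO came from mice carrying a loxP-flanked Irf5 (interferon regulatory factor 5, a transcription factor) with Cre recombinase driven from the Lyz2 locus, which is active in myeloid cells, and those labelled WT from wild-type mice. All mice were male. By name the floxed line is a C57BL/6 strain, and the name of the Cre line adds a further donor strain. Whether the WT mice carried Cre or the floxed allele is not given in the sources used here. Marrow cells of both genotypes were matured in medium conditioned by L929 fibroblasts. BMDM were untreated (Control) for 0, 2 or 24 h, or received palmitate, a saturated fatty acid, or LPS for 2 or 24 h, which gave 14 groups of 3 libraries and 42 libraries in all. The labels do not say whether the 3 libraries of a group came from separate mice, so every p-value below measures the spread between libraries, which may be technical.

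Total counts per library lay between 2848793 and 7743442 with a median of 5625399, and 3 counts corresponded to 0.387 to 1.05 CPM (counts scaled to library size). Irf5 was at 210 to 389 CPM in the 21 libraries labelled WT and at 267 to 430 CPM in the 21 labelled KO. Within each condition its KO mean was the higher, as at Control 0 h with 279 to 328 against 210 to 230 CPM. The libraries of the labels overlapped only at palmitate 2 h, at 279 to 294 CPM in KO and 267 to 284 CPM in WT. So the Irf5 count was not lower under the KO label, and the groups are named by their labels only. Counts are per gene, so whether a part of the Irf5 transcript was missing cannot be seen in them. Lyz2, which carries the Cre insertion, lay at 8025 to 14587 CPM in WT and at 4682 to 8766 CPM in KO. All 6 macrophage markers examined (Adgre1, Csf1r, Cd68, Itgam, Mertk and Fcgr1) were counted in every library, with a summed level of 4710 to 8747 CPM, whereas the summed markers of B cells, of T or NK cells, of erythroid cells, of mast cells and of dendritic cells reached at most 8.69 CPM in each case, with Hbb-bs, Tpsb2 and Mcpt4 at 0 throughout. Fibroblast markers, in the main Col1a1, Col1a2 and Col3a1, ranged from 0 to 306 CPM, 8 granulocyte precursor markers from 19.3 to 204 CPM, and 4 platelet or megakaryocyte markers from 6.47 to 52.2 CPM, most of it Itga2b. The granulocyte precursor list held Ltf, S100a9, Ngp and S100a8, which reached 72.2, 60.2, 54.7 and 21.3 CPM in their highest libraries. It also held Mpo, Camp, Elane and Prtn3, which reached at most 8.35, 4.05, 1.56 and 1.13 CPM. High sums of this list therefore came in the main from the first 4, and the sums given below were not split by gene. The granulocyte precursor and fibroblast markers were not evenly spread over the groups. In whole cultures, fewer cells of a type and less RNA per cell cannot be told apart.

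Several of the genes are neighbours, which bears on how their reads can be assigned. All coordinates are those of GRCm38 (mm10). P2ry14 (chr3:59113855-59153618), P2ry13 (chr3:59207892-59210882) and P2ry12 (chr3:59216272-59262871) lie in a row on the minus strand, separated by 54.273 and 5.389 kb, inside the gene Med12l on the opposite strand. Med12l averaged 12 counts per library, and its exons share only 9 bases with those of P2ry12 and 0 with those of P2ry13 and P2ry14. P2rx7 (chr5:122643911-122691432) and P2rx4 (chr5:122707544-122729738) follow each other on the plus strand at a distance of 16.111 kb, and 119 exon bases of P2rx7 are shared with the microRNA gene Mir8115 on the same strand. P2ry6 (chr7:100937630-100974649) and P2ry2 (chr7:100996568-101012866) lie 21.918 kb apart on the minus strand. Adora2a (chr10:75316877-75334784), Adora2b (chr11:62248984-62266453) and Entpd1 (chr19:40612366-40741602) stand alone on the plus strand. All 10 are annotated as protein-coding.

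Promoter sequences of RefSeq on GRCm38.p6, from 250 bases before to 50 bases after an annotated start, were found for 8 of the 10 genes, in 14 windows of 300 bases. Adora2a, which had the largest early rise, and P2ry6 had no window and were not examined. The windows were searched on both strands for 4 motifs of factors that act in LPS-treated macrophages, the NF-kB pattern GGANNTTCC, the AP-1 site TGANTCA, the paired IRF core GAAANNGAA and the cyclic AMP element TGACGTCA. P2ry14, which rose at 24 h, has an AP-1 match at -202 from the start in its most upstream window and an NF-kB pattern match at -103 in another, and P2rx7, which fell early and rose late, has an AP-1 match at -249. These windows are shown 5′ to 3′ on the gene's strand, with the match in capitals.
P2ry14, chr3:59153443-59153742, minus strand: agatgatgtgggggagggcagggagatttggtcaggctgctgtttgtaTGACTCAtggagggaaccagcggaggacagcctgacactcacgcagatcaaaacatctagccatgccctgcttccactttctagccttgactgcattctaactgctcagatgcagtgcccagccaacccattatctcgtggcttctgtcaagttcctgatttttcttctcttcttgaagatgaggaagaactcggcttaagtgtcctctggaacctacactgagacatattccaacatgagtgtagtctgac
P2ry14, chr3:59130713-59131012, minus strand: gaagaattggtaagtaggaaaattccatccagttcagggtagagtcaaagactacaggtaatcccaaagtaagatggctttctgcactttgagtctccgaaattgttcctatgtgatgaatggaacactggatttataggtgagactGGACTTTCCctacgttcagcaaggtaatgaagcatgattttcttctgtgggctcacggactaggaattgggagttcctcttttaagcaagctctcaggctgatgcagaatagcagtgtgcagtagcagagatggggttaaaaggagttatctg
P2rx7, chr5:122643677-122643976, plus strand: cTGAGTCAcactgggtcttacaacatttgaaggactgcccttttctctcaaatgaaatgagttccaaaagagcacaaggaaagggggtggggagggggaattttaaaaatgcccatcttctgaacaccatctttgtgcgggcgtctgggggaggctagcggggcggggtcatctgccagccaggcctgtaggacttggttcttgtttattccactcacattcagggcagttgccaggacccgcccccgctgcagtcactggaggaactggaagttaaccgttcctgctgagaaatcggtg
An NF-kB pattern match was present in 4.26% of all 32851 windows, an AP-1 match in 7.81%, an IRF pair in 8.56% and a cyclic AMP element in 1.79%. Besides those shown, 1 further P2ry14 window had an AP-1 match at -144 and P2ry12 an NF-kB pattern match at -51. No window of the 8 genes held the IRF pair or the cyclic AMP element, which says only that these letters are not in these windows. The percentages are per window, and P2ry14 had 4 windows in which a match could lie. The bearing of any match on a response was not tested.

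Adora2b and P2ry2, which rose at 2 h, had none of the 4 motifs in their windows, and their windows differed from those of P2ry14 in base composition. They are shown with each CpG dinucleotide in capitals.
Adora2b, chr11:62248734-62249033, plus strand: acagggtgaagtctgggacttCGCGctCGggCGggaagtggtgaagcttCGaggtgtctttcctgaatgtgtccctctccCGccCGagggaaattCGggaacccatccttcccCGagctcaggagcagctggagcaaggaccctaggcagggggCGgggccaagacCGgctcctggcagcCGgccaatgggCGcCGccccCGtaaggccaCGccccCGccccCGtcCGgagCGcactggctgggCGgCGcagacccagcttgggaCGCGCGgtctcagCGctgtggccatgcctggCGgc
P2ry2, chr7:101012004-101012303, minus strand: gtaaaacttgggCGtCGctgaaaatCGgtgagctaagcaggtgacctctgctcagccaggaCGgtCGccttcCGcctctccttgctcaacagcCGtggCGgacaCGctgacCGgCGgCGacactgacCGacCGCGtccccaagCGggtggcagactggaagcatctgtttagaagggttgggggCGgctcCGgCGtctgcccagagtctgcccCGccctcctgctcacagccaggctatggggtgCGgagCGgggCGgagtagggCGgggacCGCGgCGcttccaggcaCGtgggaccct
The Adora2b window held 27 CpG dinucleotides at a GC content of 70%, and the P2ry2 window shown held 28 at 67.3%, against a median of 7 CpG dinucleotides over all windows. The first P2ry14 window held 4 at 49.3% GC, and the other P2ry14 windows held 1, 4 and 3. The windows of P2ry13 and P2ry12, the other genes of the chromosome 3 row, held 6 and 4, that of P2rx4 18, and those of Entpd1 23 and 10. The windows of P2rx7, which also responded at 2 h, held 8 and 4, so a high CpG number was not shared by all genes that responded early. These are properties of the reference sequence, and their bearing on the responses was not tested.

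The genes were present at very different levels. Compared as CPM per kilobase of exon in the 6 untreated libraries at 0 h, P2ry6, a receptor for UDP, was the highest at 37.6 ± 2.49 (SD, n = 6). Entpd1 at 22.2 ± 7.49 and P2rx4 at 21.9 ± 1.42 followed and overlapped in range when the labels were pooled. Entpd1 differed between the labels at 0 h, at 28.1 ± 0.372 in WT and 16.3 ± 6.08 in KO (SD, n = 3 each). Its mean was above that of P2rx4 in WT and below it in KO, so the pooled values give no common order for this pair. Then came P2rx7 at 11.4 ± 0.519 and P2ry2 at 3.77 ± 0.436, each separate from its neighbours in the order. Adora2a, P2ry12, P2ry13, Adora2b and P2ry14 lay between 0.468 and 1.31 on this scale, and each overlapped the next. After 2 h of LPS, Adora2b had moved from the ninth to the fourth place at 22.8 ± 3.59 CPM per kilobase, a range shared with P2rx4 and Entpd1. After 24 h of LPS, P2rx4 at 43.2 ± 3.39 and P2ry6 at 41.7 ± 3.28 led with overlapping ranges, and Entpd1 had fallen to the sixth place at 2.76 ± 0.644.

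**Figure D1:**
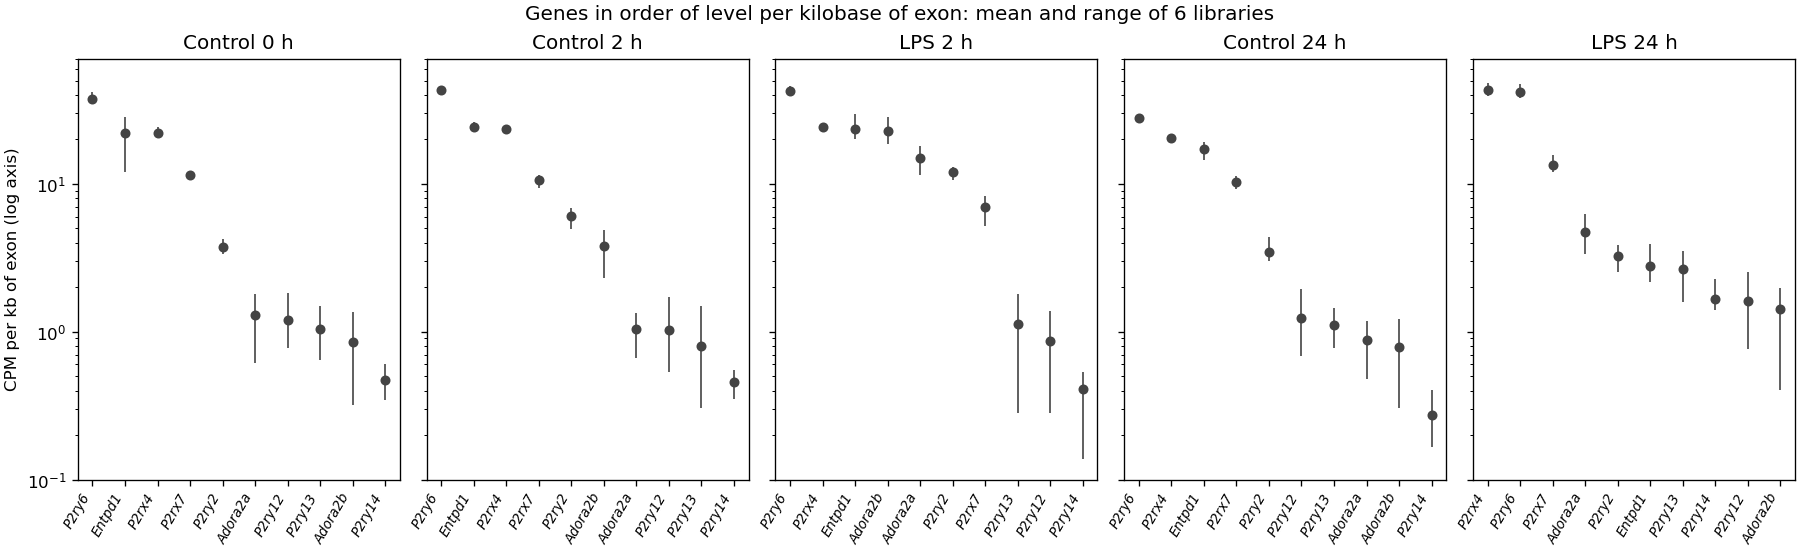
Levels of the 10 genes as CPM per kilobase of exon (log axis) in 5 conditions, sorted within each condition. Points are means and bars the range of the 6 libraries of both genotype labels; Adora2b and Adora2a climb at LPS 2 h, and Entpd1 drops from 17.3 to 2.76 between Control and LPS at 24 h.

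LPS, the ligand of the receptor TLR4 and a standard inflammatory stimulus, was compared with Control of the same time and label to ask which receptors respond early and late. At 2 h, 3 of the 10 genes were higher and 1 was lower in WT, and the same counts held in KO, where Adora2a, Adora2b and P2ry2 were the higher genes and P2rx7 the lower one under both labels. Over all genes tested, 14% were higher and 9.1% lower in WT, and 14.7% and 9.16% in KO. At 24 h, 7 genes were higher and 1 was lower in WT (all genes 19.6% and 19.9%), and 6 were higher and 1 was lower in KO (all genes 19.9% and 21%). The median log2 fold change of the 10 genes was 0.17 and 0.01 at 2 h and 0.90 and 0.54 at 24 h in WT and KO, against -0.01 over all genes in each of the 4 comparisons. Beside the changes at 2 h, the summed granulocyte precursor markers were higher after LPS, at 45.4 to 66.1 CPM against 19.3 to 32.9 CPM in WT, without overlap, and at 118 to 204 CPM against 65.0 to 125 CPM in KO. The fibroblast markers in WT were at 0.371 to 0.716 CPM against 1.16 to 58.7 CPM and overlapped in KO, and the part of either list in the changes was not tested. Every adjusted p is from edgeR's quasi-likelihood fit, corrected by the method of Benjamini and Hochberg across the 11624 genes, and calls needed it to be under 0.05. The levels given are CPM scaled by the TMM method.

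**Figure D2:**
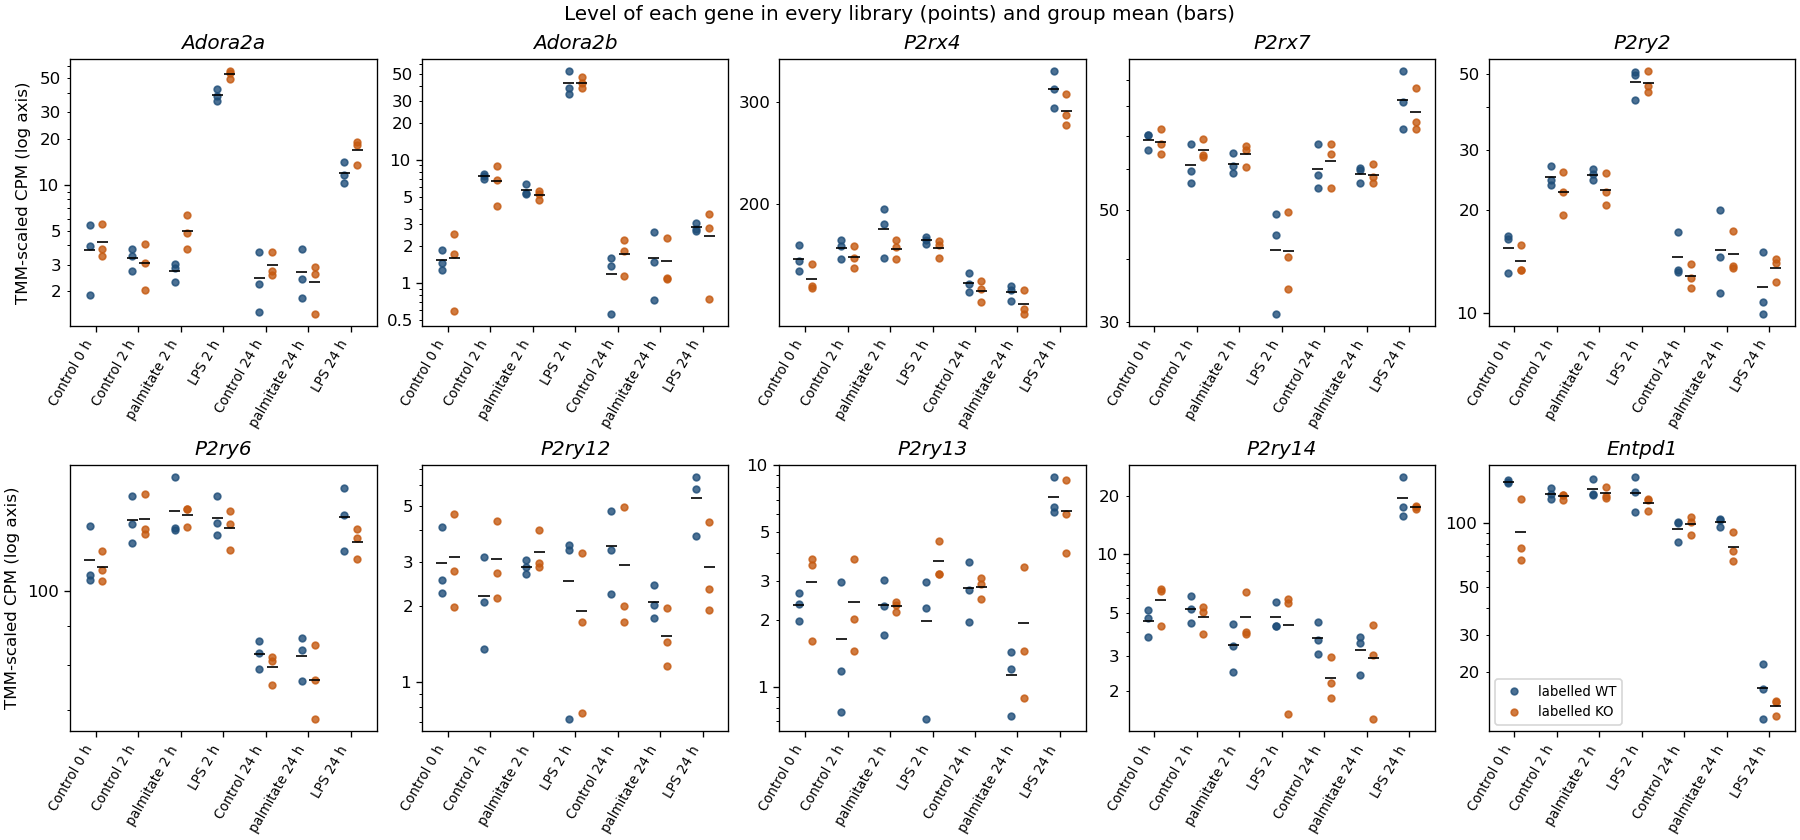
Level of each gene in every library as TMM-scaled CPM (log axis, one scale per gene) by condition. Points are libraries, blue for WT and orange for KO, and bars are means of 3; Adora2a, Adora2b and P2ry2 peak at LPS 2 h, P2rx4 and P2ry14 at LPS 24 h, and Entpd1 is lowest at LPS 24 h.

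**Figure D3:**
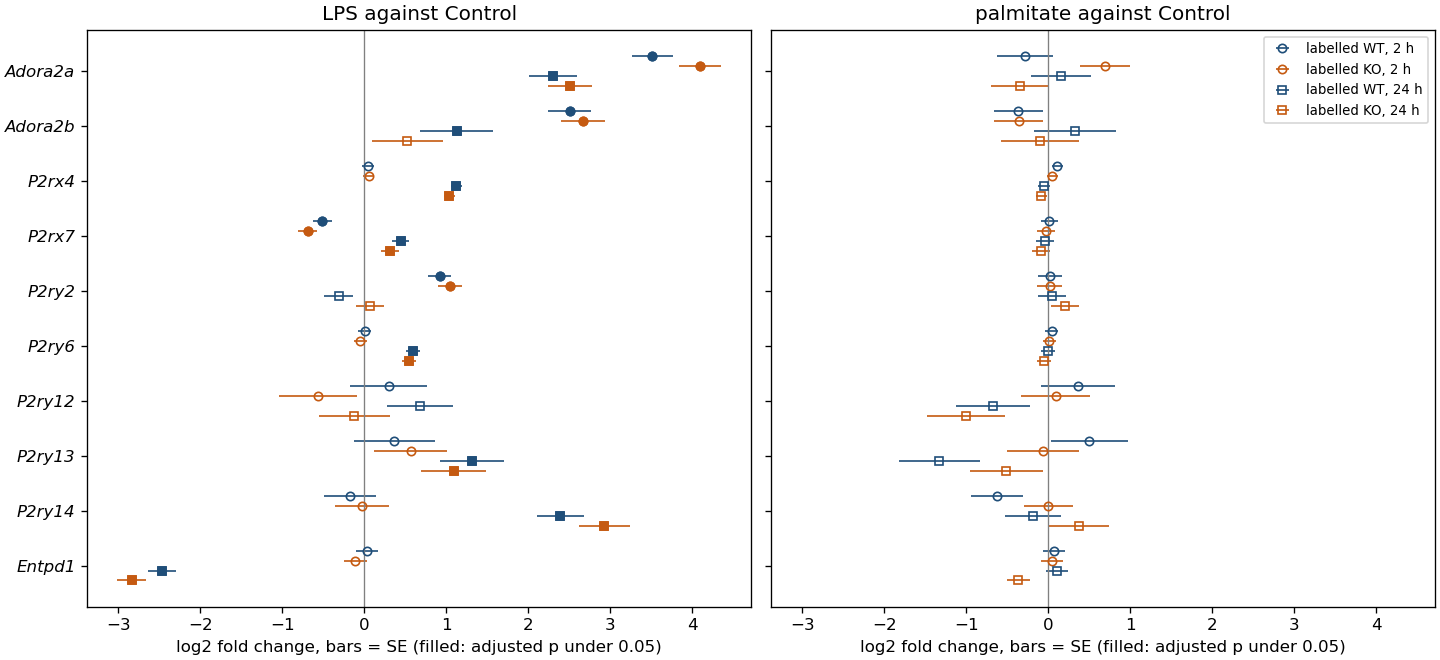
Log2 fold change of each gene against Control of the same time and label, for LPS (left) and palmitate (right). Bars are standard errors and filled symbols passed an adjusted p of 0.05; the LPS comparisons hold 4, 4, 8 and 7 filled symbols (WT and KO at 2 h, then at 24 h) and the palmitate comparisons 0.

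Adora2a, which encodes a high-affinity receptor for adenosine, showed the largest early rise of the 10 genes. It was at 2.71, 3.81 and 3.41 CPM in WT Control libraries at 2 h and at 42.6, 35.3 and 37.9 CPM after LPS. The KO libraries gave 3.08, 4.12 and 2.04 CPM in Control and 55.4, 49.0 and 54.3 CPM after LPS, so that treated and untreated libraries were far apart under both labels. The rise was 11.5-fold in WT (log2 fold change 3.52, SE 0.25, adjusted p 9.84e-17) and 17.1-fold in KO (4.10, SE 0.25, adjusted p 4.03e-19). At 24 h the level after LPS was 11.6, 14.1 and 10.3 CPM in WT against 2.25, 3.60 and 1.46 CPM in Control. In KO it was 19.1, 13.4 and 18.3 CPM against 2.73, 3.65 and 2.55 CPM. The late rise was thus 4.93-fold in WT (2.30, SE 0.29, adjusted p 3.98e-09) and 5.71-fold in KO (2.51, SE 0.27, adjusted p 3.98e-11). Averaged over the labels, the response at 24 h was smaller than that at 2 h by a log2 difference of -1.40 (SE 0.29, adjusted p 7.46e-05). By this comparison of the times, 4 of the 10 genes were called with a higher and 4 with a lower value at 24 h, and of all genes 21.7% and 24.5%.

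Adora2b, which encodes the lower-affinity adenosine receptor, shared the early rise but hardly any of the late one. LPS at 2 h brought it from 7.74, 6.95 and 7.41 to 38.3, 52.6 and 34.5 CPM in WT. In KO it went from 6.88, 8.95 and 4.24 to 41.8, 47.0 and 38.5 CPM, again without overlap. The folds were 5.68 in WT (log2 2.51, SE 0.26, adjusted p 3.00e-11) and 6.35 in KO (2.67, SE 0.27, adjusted p 7.20e-12). At 24 h only 2.65 to 3.08 CPM were left in the LPS libraries of WT, against 0.561, 1.37 and 1.60 CPM in Control, the lowest of which rests on 2 counts. This difference passed the test narrowly (log2 1.13, SE 0.45, adjusted p 0.0383). The call was lost without WT Control library 1 (0.91, adjusted p 0.131) or 2 (1.19, 0.0716), and without WT LPS library 1 (1.07, 0.0867), 2 (1.17, 0.0542) or 3 (1.15, 0.0646). In KO the LPS libraries at 24 h, at 0.745, 2.8 and 3.66 CPM, overlapped Control at 2.23, 1.82 and 1.13 CPM (0.53, SE 0.43, adjusted p 0.356). The response at 24 h was smaller than at 2 h by a log2 difference of -1.76 (SE 0.38, adjusted p 1.56e-04).

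The balance of the adenosine receptor transcripts within a library followed from these values. The ratio of Adora2b to Adora2a reads does not depend on scaling and was not corrected for length. Its median was 0.483 at Control 0 h, 2.17 at Control 2 h and 0.905 at LPS 2 h over the 6 libraries of each. It was 0.472 at Control 24 h with a range of 0.250 to 1.10, and 0.204 at LPS 24 h with a range of 0.0391 to 0.269. The ratios at 24 h rest on 2 to 11 Adora2b counts in Control and 5 to 25 after LPS. The ratios of the Control and LPS libraries at 2 h did not overlap, at 1.83 to 2.86 against 0.709 to 1.49. Per kilobase of exon, Adora2b was the higher of the pair at LPS 2 h, at 18.7 to 28.5 CPM against 11.5 to 18.1 CPM for Adora2a.

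P2rx7, the channel that opens at high ATP and drives inflammasome activation, moved in opposite directions at the 2 times. At 2 h it was lower after LPS, at 31.1, 44.6 and 49.0 CPM against 67.4, 56.4 and 59.6 CPM in WT Control, and at 49.4, 40.3 and 34.8 CPM against 68.9, 63.6 and 64.1 CPM in KO Control. The log2 fold changes were -0.51 (SE 0.12, adjusted p 4.97e-04) in WT and -0.69 (SE 0.12, adjusted p 5.43e-06) in KO. At 24 h it was higher, with 81.5, 72.0 and 93.8 CPM after LPS against 58.4, 55 and 67.3 CPM in WT Control (0.45, SE 0.11, adjusted p 4.66e-04). The KO libraries gave 72.0, 87.0 and 74.5 CPM against 64.3, 55 and 67.4 CPM (0.32, SE 0.10, adjusted p 0.0123), and this call was lost without KO Control library 2 (0.24, adjusted p 0.105) or KO LPS library 2 (0.24, adjusted p 0.102). The difference between the responses at 24 and 2 h was 0.98 on the log2 scale (SE 0.11, adjusted p 1.56e-10).

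P2rx4, an ATP-gated channel found on lysosomes as well as on the surface, responded at 24 h alone among the times tested. After LPS for 2 h it lay at 170, 175 and 173 CPM in WT against 173, 168 and 160 CPM in Control (0.05, SE 0.07, adjusted p 0.683), and KO gave 0.05 (SE 0.07, adjusted p 0.642). At 24 h it stood at 317, 293 and 340 CPM after LPS against 152, 145 and 140 CPM in WT, and at 274, 311 and 285 CPM against 135, 147 and 142 CPM in KO. The lowest treated library was well above the highest of the other 36 libraries, at 195 CPM. These are rises of 2.18-fold (log2 1.13, SE 0.07, adjusted p 4.69e-20) and 2.05-fold (1.04, SE 0.07, adjusted p 1.06e-18), and the response at 24 h exceeded that at 2 h by 1.03 (SE 0.07, adjusted p 2.47e-18). Since P2rx4 rose more than P2rx7 late and P2rx7 fell alone early, the ratio of P2rx7 to P2rx4 reads, not corrected for length, was lower in LPS libraries at both times. Its range was 0.183 to 0.291 at LPS 2 h against 0.335 to 0.411 in Control, and 0.245 to 0.280 at LPS 24 h against 0.376 to 0.480 in Control.

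Of the uridine nucleotide receptors, P2ry2, activated by ATP and UTP, rose at 2 h and P2ry6, activated by UDP, at 24 h. P2ry2 reached 49.7, 41.9 and 50.5 CPM after 2 h of LPS against 23.6, 26.8 and 24.4 CPM in WT Control. In KO it reached 50.9, 46.0 and 44.3 CPM against 19.4, 25.8 and 22.6 CPM. The rise was 1.89-fold (log2 0.92, SE 0.15, adjusted p 1.27e-06) and 2.07-fold (1.05, SE 0.15, adjusted p 9.04e-08). At 24 h P2ry2 was at 9.95 to 15.1 CPM after LPS in WT and 12.3 to 14.4 CPM in KO, overlapping Control under both labels (-0.31 with adjusted p 0.156 and 0.07 with adjusted p 0.776). Without WT LPS library 2 the WT value became a call in the other direction from 2 h, at -0.51 (adjusted p 0.0301). The response at 24 h was lower than at 2 h by a log2 difference of -1.10 (SE 0.16, adjusted p 9.48e-08).

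P2ry6 lay at 133, 123 and 118 CPM in WT after 2 h of LPS and 133, 122 and 115 CPM in Control, practically superimposed (0.01, SE 0.08, adjusted p 0.961), and KO gave -0.05 (SE 0.08, adjusted p 0.761). At 24 h it was at 113, 126 and 136 CPM after LPS against 86.2, 83.0 and 79.1 CPM in WT. The KO values were 110, 120 and 117 CPM against 81.9, 81.1 and 75.5 CPM, also without overlap. The log2 fold changes were 0.60 (SE 0.08, adjusted p 3.31e-08) and 0.55 (SE 0.08, adjusted p 2.73e-07), and the excess over the response at 2 h was 0.59 (SE 0.08, adjusted p 3.62e-08). The Control libraries themselves were lower at 24 h than at 0 h, as given with the time course of the untreated cells, and the LPS libraries at 24 h lay within the range of 110 to 136 CPM, close to the 103 to 121 CPM of Control at 0 h.

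The genes of the chromosome 3 row are receptors coupled to inhibitory G proteins, P2ry12 and P2ry13 for ADP and P2ry14 for UDP-glucose. P2ry14 was low in all cells not given LPS for 24 h, where its highest library had 6.66 CPM. LPS at 24 h brought it to 17.5, 25 and 15.6 CPM in WT against 4.49, 3.09 and 3.64 CPM. In KO it reached 17.4, 17 and 17.7 CPM against 2.98, 2.19 and 1.84 CPM. The rise was 5.25-fold (log2 2.39, SE 0.28, adjusted p 6.96e-10) and 7.63-fold (2.93, SE 0.31, adjusted p 1.70e-11). At 2 h it showed no such difference (-0.17 with adjusted p 0.766 and -0.03 with adjusted p 0.967), and the response at 24 h exceeded that at 2 h by 2.76 (SE 0.31, adjusted p 1.32e-10).

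P2ry13 reached no more than 58 counts in any library and had 2 in the lowest. After 24 h of LPS it was at 6.50, 6.12 and 8.88 CPM in WT against 1.97, 2.74 and 3.64 CPM in Control (log2 1.31, SE 0.39, adjusted p 0.00563). In KO it was at 4.03, 8.59 and 6.0 CPM against 2.48, 2.92 and 3.11 CPM (1.09, SE 0.39, adjusted p 0.0223), and this call was lost without KO Control library 1 (1.02, adjusted p 0.0647) or 2 (1.11, 0.0519) or KO LPS library 2 (0.80, 0.150). Its response at 24 h exceeded that at 2 h by 0.74, which did not pass the test (SE 0.44, adjusted p 0.167). P2ry12, the ADP receptor known from platelets and microglia, had 2 to 38 counts per library and passed none of the 4 LPS tests. Its log2 fold changes were 0.30 and -0.56 at 2 h and 0.68 and -0.12 at 24 h in WT and KO, with adjusted p between 0.188 and 0.859, and its standard errors of 0.41 to 0.48 leave changes of that size undetectable at this depth. So within the row, P2ry14 and P2ry13 rose at 24 h and P2ry12 gave no call, and Med12l, the gene around them, passed no LPS test either.

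Entpd1, whose product degrades ATP and ADP to AMP, was the only one of the 10 genes called lower at 24 h. At 24 h it went from 101, 81.3 and 99.8 CPM in WT Control to 16.8, 12.1 and 21.9 CPM after LPS. In KO it went from 87.7, 107 and 102 CPM to 12.5, 14.8 and 14.5 CPM. The fall was 5.51-fold in WT (log2 -2.46, SE 0.17, adjusted p 2.13e-17) and 7.13-fold in KO (-2.83, SE 0.17, adjusted p 2.41e-19), and the highest treated library, at 21.9 CPM, was far below the lowest of the other 36 libraries, at 66.8 CPM. At 2 h LPS had left it in the Control range, with 112, 165 and 140 CPM against 138, 146 and 129 CPM in WT (0.03, SE 0.13, adjusted p 0.897) and -0.11 (SE 0.14, adjusted p 0.646) in KO. The difference between the responses at 24 and 2 h was -2.61 (SE 0.16, adjusted p 9.53e-20). Beside the changes at 24 h, the summed macrophage markers were higher after LPS, at 7691 to 8747 CPM in WT and 7682 to 7950 CPM in KO against 5032 to 5078 and 4918 to 5068 CPM in Control. The granulocyte precursor markers were lower, at 30.6 to 33.4 CPM against 51.4 to 61.2 CPM in WT and at 42 to 63.2 CPM against 128 to 198 CPM in KO. The fibroblast markers were lower in WT, at 0.171 to 2.48 CPM against 2.74 to 45.2 CPM, and overlapped in KO. The part of these lists in the changes was not tested.

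Palmitate was compared with Control to ask whether a lipid load moves the same receptors, and 0 of the 10 genes passed the test at either time under either label. This stands against 0.275% and 0.112% of all genes at 2 h and 0.852% and 0.877% at 24 h in WT and KO, so that few calls were to be had, while Plin2, a lipid droplet gene, rose in all 4 comparisons with log2 fold changes from 0.93 to 2.02. No share of all genes is given for an unadjusted p or for DESeq2, so counts by either have no background here. At an unadjusted p under 0.05 there were 0 and 1 genes at 2 h and 1 and 2 at 24 h, and DESeq2 called 0 in each. These were Adora2a in KO at 2 h, with 6.36, 4.82 and 3.77 CPM after palmitate against 3.08, 4.12 and 2.04 CPM (0.69, SE 0.31, adjusted p 1.00), P2ry13 in WT at 24 h, with 1.21, 0.739 and 1.44 CPM against 1.97, 2.74 and 3.64 CPM (-1.33, SE 0.49, adjusted p 0.303), and P2ry12 (-1.0, SE 0.47, adjusted p 0.580) and Entpd1 in KO at 24 h. Entpd1 was then at 66.8, 91.1 and 73.8 CPM against 87.7, 107 and 102 CPM in Control (-0.36, SE 0.14, adjusted p 0.380). It did pass when all genes with at least 1 count were tested (-0.36, adjusted p 0.00954) or only the libraries compared were fitted (-0.36, adjusted p 0.0123). Apart from Entpd1, which was well expressed too, the palmitate values of the well-expressed P2rx4, P2rx7, P2ry2 and P2ry6 stayed between -0.09 and 0.21. The granulocyte precursor markers in WT were at 43.1 to 55.7 CPM after palmitate for 2 h against 19.3 to 32.9 CPM in Control, and their part in these values was not tested. LPS and palmitate were compared with the same Control libraries.

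Untreated cells also changed with time, which was examined as the mean of both labels. At 2 h against 0 h, 3 of the 10 genes were higher and 0 lower (all genes 9.35% and 7.36%), namely Adora2b, P2ry2 and P2ry6. Adora2b was at 1.45, 1.26 and 1.85 CPM in WT and 0.589, 1.71 and 2.52 CPM in KO at 0 h, below each of the 2 h Control values given above, and its rise was 4.37-fold (log2 2.13, SE 0.26, adjusted p 4.94e-09), with 2.24 in WT and 2.02 in KO. P2ry2 rose from 13.1 to 16.7 CPM over the 6 libraries to 19.4 to 26.8 CPM (0.69, SE 0.11, adjusted p 4.28e-06). P2ry6 rose by 0.19 (SE 0.06, adjusted p 0.0136), a call that was lost without WT Control 2 h library 1 (0.17, adjusted p 0.0503) or KO Control 2 h library 1 (0.17, adjusted p 0.0537) and that neither label gave alone. Adora2a, in contrast to its rise under LPS, was at -0.31 (SE 0.22, adjusted p 0.399). Entpd1 was at 0.18 (SE 0.09, adjusted p 0.203), and it became a call with KO alone (0.55, adjusted p 0.00341), with all genes of at least 1 count (0.18, adjusted p 0.0281) and without KO Control 0 h library 2 (0.36, adjusted p 7.49e-04). From 0 to 2 h the granulocyte precursor markers went from 47.2 to 54.4 CPM to 19.3 to 32.9 CPM in WT and overlapped in KO, and the fibroblast markers from 0.529 to 0.905 CPM to 1.16 to 58.7 CPM in WT and from 42.1 to 69.3 CPM to 72.3 to 118 CPM in KO. Their part in the changes was not tested.

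At 24 h against 0 h in Control, 0 of the 10 genes were higher and 3 were lower (all genes 7.9% and 8.62%), and DESeq2 called 2. P2ry6 fell from 103 to 121 CPM to 75.5 to 86.2 CPM over the 6 libraries (-0.42, SE 0.06, adjusted p 2.42e-07), to a similar extent in WT (-0.41) and KO (-0.44). P2ry14 was lower by -0.83 (SE 0.23, adjusted p 0.00857), with -0.32 in WT, which did not pass (adjusted p 0.605), and -1.35 in KO (adjusted p 0.00578). Entpd1 was lower by -0.31 (SE 0.10, adjusted p 0.0191), but its time course was unlike in the labels, as its genotype comparison shows. Adora2a was at -0.56 (SE 0.24, adjusted p 0.0996), and it became a call without WT Control 0 h library 2 (-0.72, adjusted p 0.0248) or WT Control 24 h library 2 (-0.79, adjusted p 0.0326). The granulocyte precursor markers in KO went from 73.0 to 81.5 CPM at 0 h to 128 to 198 CPM at 24 h, and the fibroblast markers in WT from 0.529 to 0.905 CPM to 2.74 to 45.2 CPM, and their part was not tested.

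Between the labels, 1 of the 10 genes passed the test in 1 of the 7 conditions, Entpd1 at Control 0 h, where 12.5% of all genes tested were called. Entpd1 lay at 156, 159 and 155 CPM in WT and at 76.4, 130 and 66.9 CPM in KO (log2 fold change -0.78, SE 0.13, adjusted p 5.67e-05). The KO libraries were lower than every WT library but spread widely, and without KO library 2, the highest of them, the difference was -1.12 (adjusted p 3.73e-09), while without KO library 3, the lowest, it was -0.59 (adjusted p 0.00535). In the same libraries Lyz2 stood at 7365, 5377 and 8766 CPM in KO against 10146 to 10238 CPM in WT. The fibroblast markers summed to 42.1 to 69.3 CPM in KO and 0.529 to 0.905 CPM in WT, and the granulocyte precursor markers to 73.0 to 81.5 and 47.2 to 54.4 CPM, and the part of either in the Entpd1 difference was not tested. At Control 2 h Entpd1 was at 135, 129 and 136 CPM in KO and 138, 146 and 129 CPM in WT (-0.04, SE 0.13, adjusted p 0.958), with overlapping libraries.

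The change of Entpd1 with time in Control therefore differed between the labels. The difference of the changes from 0 to 2 h was 0.73 (SE 0.19, adjusted p 0.0134) and from 0 to 24 h 0.86 (SE 0.19, adjusted p 0.0100), where 4.77% and 1.83% of all genes were called and Entpd1 alone among the 10. This comparison was added after the values had been seen and rests on the same 3 KO libraries at 0 h. The first was lost without KO Control 0 h library 1 (0.62, adjusted p 0.0643) or 3 (0.55, 0.0888). The second was lost without KO Control 0 h library 1 (0.73, 0.0662) or 3 (0.66, 0.0871), WT Control 24 h library 2 (0.74, 0.0573) or KO Control 24 h library 2 (0.78, 0.0509). In WT alone Entpd1 fell by 0.74 on the log2 scale from 0 to 24 h (adjusted p 7.58e-05), and in KO alone it was at 0.12 (adjusted p 0.716). The mean fall quoted above was lost without KO Control 0 h library 2 (-0.13, adjusted p 0.333), WT Control 24 h library 2 (-0.25, 0.0885) or KO Control 24 h library 1 (-0.27, 0.0668).

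In the other 6 conditions 0 of the 10 genes were called between the labels, against 0.49% of all genes at Control 2 h, 0.12% at Control 24 h, 0.146% at palmitate 2 h, 0.0688% at palmitate 24 h, 0.465% at LPS 2 h and 0.146% at LPS 24 h. At an unadjusted p under 0.05 there were 0, 0, 1, 1, 1 and 3 genes in that order, and DESeq2 called 0 in each. No share of all genes is given for either of these counts, so they have no background to be read against. Adora2a made up 3 of the genes at an unadjusted p under 0.05, with higher values in KO. All 3 KO libraries of LPS 2 h (55.4, 49.0 and 54.3 CPM) were above all 3 WT libraries (42.6, 35.3 and 37.9 CPM), a log2 difference of 0.46 (SE 0.20, adjusted p 0.331). Adora2a was at 0.51 (SE 0.22, adjusted p 0.457) at LPS 24 h, where the libraries overlapped, and at 0.85 (SE 0.32, adjusted p 0.370) at palmitate 2 h. The granulocyte precursor markers were also higher in KO in these conditions, at 118 to 204 against 45.4 to 66.1 CPM, at 42 to 63.2 against 30.6 to 33.4 CPM and at 85.2 to 147 against 43.1 to 55.7 CPM in that order, and their part was not tested. Entpd1 at palmitate 24 h, where these markers were at 106 to 162 CPM in KO and 61.2 to 83.7 CPM in WT, did not overlap either (-0.39, SE 0.14, adjusted p 0.429), and it passed when all genes with at least 1 count were tested (-0.39, adjusted p 0.00474). The remaining 2 genes, P2rx4 (-0.13, SE 0.06, adjusted p 0.544) and P2ry12 (-0.93, SE 0.40, adjusted p 0.466) at LPS 24 h, overlapped.

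**Figure D4:**
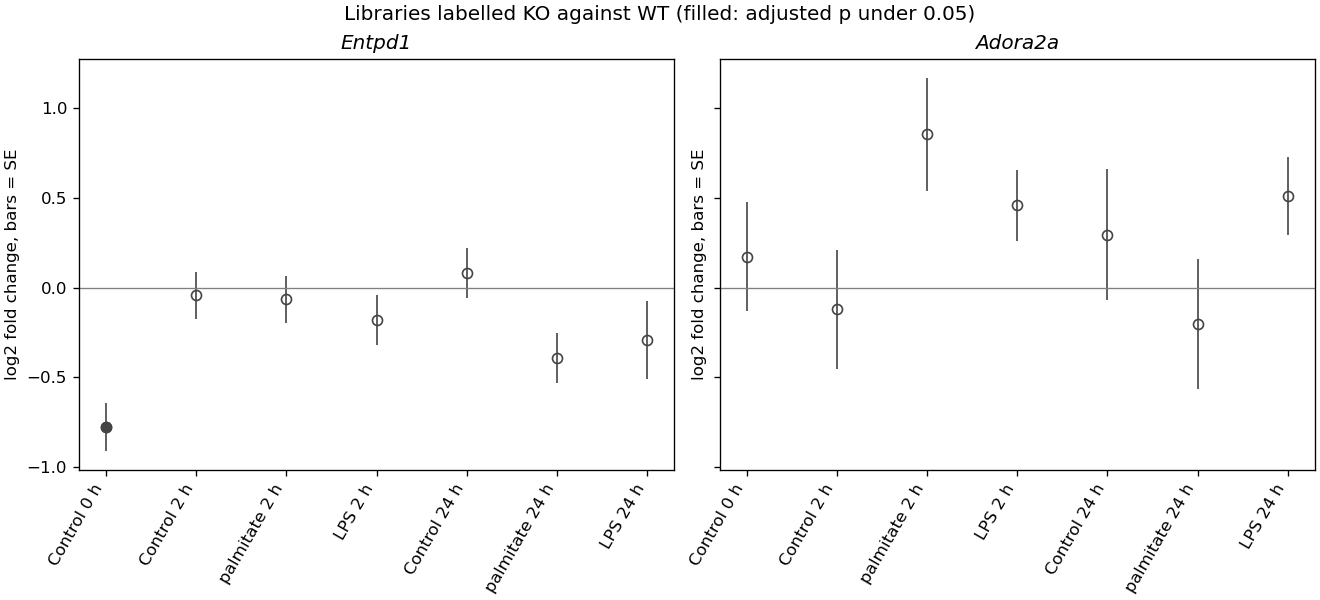
Log2 fold change of Entpd1 and Adora2a in libraries labelled KO against WT in the 7 conditions, with standard errors as bars. The only filled point, Entpd1 at Control 0 h, stands at -0.78, and Adora2a lies at 0.46 and 0.51 in the LPS conditions without passing the test.

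The response itself was also tested for a difference between the labels. For 0 of the 10 genes did the LPS or palmitate response differ at an adjusted p under 0.05, and among all genes the calls were 0% for LPS 2 h, 0.0086% for LPS 24 h and 0% for palmitate at either time. At an unadjusted p under 0.05 there were 0 and 0 genes for LPS and 1 and 1 for palmitate at 2 and 24 h, and DESeq2 called 0 in each. The share of all genes is not given for these counts either. Adora2a had a difference of 0.58 for LPS 2 h (SE 0.39, adjusted p 0.782) and Entpd1 one of -0.37 for LPS 24 h (SE 0.26, adjusted p 0.968), so that neither the larger rise nor the deeper fall in KO exceeded the spread. A p that misses the threshold does not show that the labels respond alike.

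Around these receptors, the other genes of nucleotide and adenosine signalling were counted by list. Of 5 other P2X genes only P2rx1 had enough counts for a test and it passed none of the 4 LPS tests. Of 4 other P2Y genes 2 were tested, and P2ry1, another ADP receptor, was lower after LPS at 24 h, from 7.21 ± 2.19 to 0.747 ± 0.450 CPM in WT (log2 -3.25, SE 0.39, adjusted p 7.90e-10) and from 8.09 ± 2.45 to 2.20 ± 0.965 CPM in KO (-1.81, SE 0.32, adjusted p 5.66e-06; SD, n = 3 each). The only other adenosine receptor gene with enough counts, Adora3, passed no LPS test, and Adora1 had at most 2 counts in a library. P2ry1 therefore went against P2ry13, which also encodes an ADP receptor.

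The 11 other genes listed as ectonucleotidases and found in the table included 5 with enough counts. Of these, 0 and 1 were higher at 2 h, and 1 and 2 higher and 1 and 2 lower at 24 h after LPS in WT and KO. Of all genes, 14% and 14.7% were higher at 2 h, and 19.6% and 19.9% higher and 19.9% and 21% lower at 24 h. The list is one of gene names, and whether each product acts on the cell surface was not examined. Enpp4, a nucleotide phosphodiesterase that cleaves diadenosine triphosphate, rose late from 1.76 ± 0.500 to 24.9 ± 2.21 CPM in WT (log2 3.75, SE 0.30, adjusted p 4.90e-15) and from 2.50 ± 0.323 to 27 ± 4.56 CPM in KO (3.41, SE 0.29, adjusted p 1.70e-14; SD, n = 3 each). Enpp1, which makes AMP and pyrophosphate from ATP, fell late with log2 fold changes of -1.59 (SE 0.22, adjusted p 2.61e-08) and -2.01 (SE 0.22, adjusted p 1.02e-10). Nt5e, the AMP-to-adenosine enzyme that acts after Entpd1, had at most 10 counts in a library and was not tested. So the ATP-degrading genes Entpd1 and Enpp1 fell together at 24 h under both labels.

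Of 8 tested genes of adenosine uptake and metabolism, 1 was higher and 1 lower at 2 h in WT and 2 and 2 in KO, and 2 and 1 in WT and 3 and 1 in KO at 24 h. Of all genes, 14% and 9.1%, 14.7% and 9.16%, 19.6% and 19.9%, and 19.9% and 21% were called in that order. Ampd3, an AMP deaminase, rose at 2 h by 0.92 (SE 0.07, adjusted p 5.93e-15) in WT and 1.17 (SE 0.07, adjusted p 1.29e-18) in KO. Slc29a3, a lysosomal nucleoside transporter, fell at 2 h (-0.73 and -0.86) and rose at 24 h (0.66 and 0.82), the same pair of directions as P2rx7. At 24 h Slc29a1, the main uptake transporter for adenosine, was lower (-0.47 and -0.53), and Adk, adenosine kinase, was higher (0.62 and 0.51), with adjusted p between 9.07e-05 and 0.0164 for these 4 values.

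Of 8 tested genes of ATP release channels and transporters, 3 were higher and 2 lower at 2 h in WT and 4 and 2 in KO, and 3 and 1 in WT and 3 and 2 in KO at 24 h. The shares of all genes were 14% and 9.1%, 14.7% and 9.16%, 19.6% and 19.9%, and 19.9% and 21% in that order. Calhm6, of the calcium homeostasis modulator channel family, rose at 2 h by 3.14 (SE 0.33, adjusted p 3.36e-11) and 3.55 (SE 0.34, adjusted p 2.38e-12) and at 24 h by 2.50 and 2.7. Gja1, the gap junction protein connexin 43, rose at 2 h alone among the tested times (2.84 and 2.56), and Lrrc8c, a volume-regulated anion channel subunit, at both (1.04 and 1.32 at 2 h, 1.10 and 1.20 at 24 h). Calhm2 fell at 2 h (-0.81 and -0.65). Panx1, the best known ATP release channel of macrophages, was outside the naming rule and was chosen after its values were seen. It fell at 2 h (-0.31 and -0.34) and 24 h (-0.80 and -0.75). With palmitate 0 genes of any of these 6 lists passed the test at either time under either label.

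**Figure D5:**
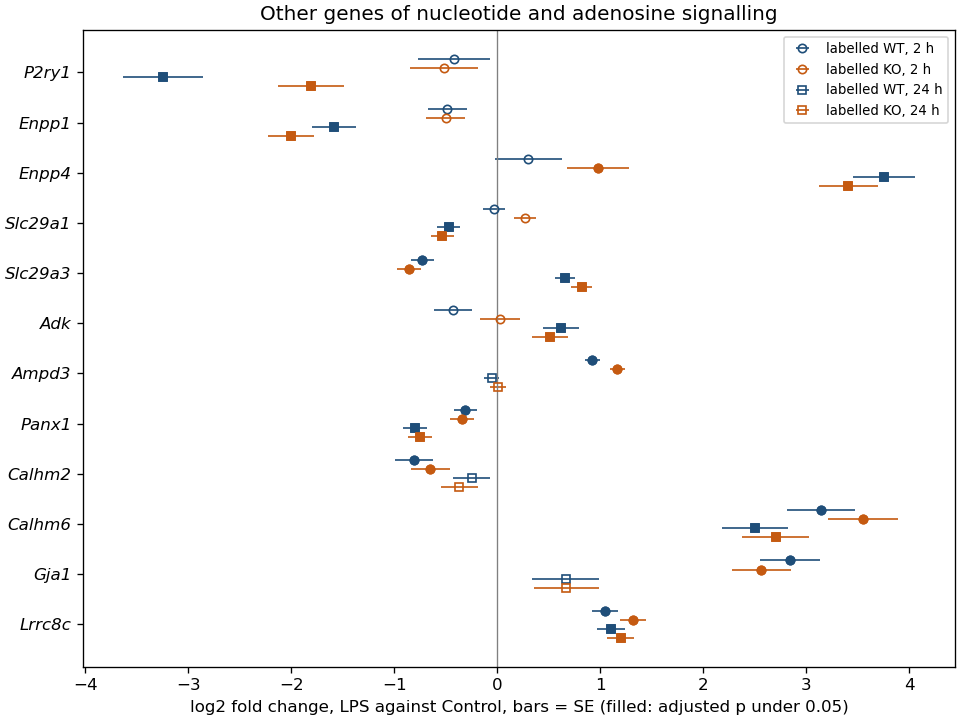
Log2 fold change after LPS against Control of the same time and label for 12 genes of nucleotide and adenosine signalling outside the 10. Bars are standard errors and filled symbols passed an adjusted p of 0.05; Enpp4 and Calhm6 rise most, and P2ry1 and Enpp1 fall at 24 h.

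As a description of pattern, the genes most like each of the 10 were sought by Pearson's r over the 14 group means of log2 CPM among 11393 genes. The groups share Control conditions and libraries are few, so r is given without a p, and likeness says nothing of shared control. For genes that rose at 2 h these were Junb (0.993), Maff (0.985) and Prag1 (0.984) for Adora2b, Zfand5 (0.991), Dusp1 (0.990) and Zfp36 (0.989) for P2ry2, and Cd69 (0.987), Slfn2 (0.983) and Socs1 (0.983) for Adora2a. For genes that responded at 24 h they were Unc93b1 (0.987), Cp (0.984) and Phf11a (0.982) for P2rx4, Pou2f2 (0.971), Siglec1 (0.970) and Ifitm3 (0.969) for P2ry14, and Sulf2 (0.995), Tpd52 (0.994) and Tceal9 (0.991) for Entpd1. P2rx7 was nearest to Zbtb34 (0.968), Zscan22 (0.955) and Tifab (0.954), P2ry6 to Got1 (0.937), Il21r (0.917) and Vamp2 (0.911), and P2ry13 to Triobp (0.924), Chic1 (0.920) and Rnf144a (0.914). P2ry12 had the weakest likeness, to Prepl (0.843), Mrpl58 (0.841) and Rap1gap (0.810). Among the 10 themselves the closest pairs were P2ry2 with Adora2b (0.954) and P2rx4 with P2ry14 (0.932), and the most opposed were P2rx7 with P2ry2 (-0.831) and P2ry14 with Entpd1 (-0.828).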

How the data were processed

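BMDM total RNA was made into strand-specific cDNA, from which ribosomal sequences were depleted, and sequenced in paired ends. The authors aligned reads to mm10 with STAR 2.7.3a and deposited raw counts per gene, not normalised. The submitters' notes also name fastp 0.19.11. The annotation release and the strand setting of the counting are not given in the sources used here, so reads of overlapping genes could be misassigned. Column headers give the group and no replicate number, so library numbers follow column order and pair nothing. No pair of libraries of a group was identical, and all 42 pairs differed by more than sampling noise (chi-square per degree of freedom 1.93 to 9.32).

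The counts were tested with edgeR 4.0.16 under R 4.3.3. After filterByExpr and TMM scaling, all 42 libraries entered a single quasi-likelihood fit in which each of the 14 groups had its own mean. Benjamini-Hochberg adjustment ran over 11624 genes. The SE is the size of the log2 fold change divided by the square root of F. Symbols for 32620 of 37310 rows, positions and exon lengths came from the GENCODE annotation of GRCm38, and promoters from RefSeq. Levels between genes were compared per kilobase of merged exons. A prior count of 2 was used for log2 CPM. Depth limits precision for P2ry12, P2ry13 and Adora2b.

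All 10 genes are named. From each list of pathway genes at most 4 were named with fold changes by rule. These were genes called with the same sign for LPS under both labels at 1 time with the largest change. Panx1 was named outside this rule, after its values were seen. Entpd4 and Pnp had no matching symbol. The genes, lists and rule were chosen with earlier results of these data known. Alternatives were RLE scaling, all genes with at least 1 count, only the libraries compared, DESeq2 1.42.0, each label alone and leaving out each library. The change in Control between labels was compared after seeing the data.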

Additional observations from a re-analysis of the deposited data

Results flagged for a closer look

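For 8 of the 10 genes the LPS response differed between the times by the test of the difference itself. By the same test 21.7% of all genes were called with a higher and 24.5% with a lower value at 24 h. On the log2 scale the response at 24 h minus that at 2 h, as the mean of both labels, was 1.03 for P2rx4, 0.98 for P2rx7, 0.59 for P2ry6, 2.76 for P2ry14, -1.10 for P2ry2, -1.40 for Adora2a, -1.76 for Adora2b and -2.61 for Entpd1. The 4 positive values belong to a pair of ATP-gated channels and the receptors for UDP and UDP-glucose. The 4 negative ones belong to both adenosine receptors of the 10, the ATP and UTP receptor and the ectonucleotidase. A negative value covers unlike courses, such as a smaller late rise for Adora2a and a late fall for Entpd1.

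Entpd1 also differed between the labels in its change with time in untreated cells. The change in KO minus that in WT was 0.73 from 0 to 2 h and 0.86 from 0 to 24 h, both resting on low KO libraries at 0 h, as its library values show. No gene was examined for a single outlying library by a formal rule, since each group held 3 libraries.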

How the results depend on the processing

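Of 40 calls of a gene in a comparison, 31 were kept in every alternative tried for them and 1 was reversed. The reversed one was Entpd1 in Control at 24 h against 0 h, which was 0.12 with KO alone and lost its call with DESeq2 (-0.31, adjusted p 0.0702). With each label alone, P2ry6 in Control at 2 h lost its call, as did P2ry14 in Control at 24 h and the time difference of Adora2b (-1.37, adjusted p 0.050) with WT alone. All other losses came from leaving out single libraries and are given with the results. The number of genes called for palmitate in KO at 24 h went from 0 to 1 when all genes with at least 1 count were tested or only the libraries compared were fitted, and that for KO against WT at palmitate 24 h from 0 to 1 with all genes, Entpd1 in each case. Without single libraries, the number called for the KO minus WT change in Control lay between 0 and 1 at 2 h and between 0 and 1 at 24 h. Counts of called genes stayed within 1.5 times in all remaining alternatives. RLE in place of TMM scaling moved the median of all genes by less than 0.01 on the log2 scale in every comparison. No paired analysis was possible because the columns of the count table carry no replicate numbers.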
